A study of Saccharomyces cerevisiae with 12 samples.

Results

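The mitochondrial ribosomal proteins of Saccharomyces cerevisiae are described here across 6 groups of arrays, as the levels of the messenger RNAs that encode them. The members were chosen by name. They are the gene probes whose systematic name has a standard name made of MRPL, MRPS, MRP or RSM and a number in the Saccharomyces Genome Database, with MRP8 left out. The rule found 66 genes among 6256 gene probes, 38 of the large subunit and 28 of the small subunit. All 66 were well above background on every spot of all 12 arrays, so none was lost to the filter that left 6083 genes.

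The yeasts were derived from MT8-1X, a strain that ferments xylose. The 3 strains were a strain co-expressing TAL and ADH (MT8-1X/TAL-ADH), a strain expressing TAL (MT8-1X/TAL-405) and a control strain (MT8-1X/404-405). Each spent 6 h with 70 or 0 mM of furfural, which is an aldehyde formed when plant biomass is broken down that inhibits yeast fermentation. Each of the 6 groups had 2 runs, and each run was labelled with Cy3 and hybridised to 1 single-colour Agilent array. The sources used here name neither the introduced genes nor the promoters that drive them; that TAL and ADH stand for TAL1 and ADH1 is an assumption. Whether the runs of 1 group came from separate cultures is not said, so the p-values reflect the spread between these samples alone, and that spread may be technical.

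The mitochondrial ribosome translates the few messenger RNAs made from mitochondrial DNA. Most of these encode core subunits of the respiratory chain and of the ATP synthase. Nearly all of its proteins are encoded in the nucleus, made in the cytosol and imported. Part of them descend from bacterial ribosomal proteins, and the others are found only in mitochondria. In this yeast the genes are known to be expressed more on respiratory carbon sources than on glucose. Of the 66 members, 41 have a bacterial counterpart (24 in the large and 17 in the small subunit) and 24 are specific to mitochondria (14 and 10). RSM22, related to methyltransferases, was put in neither class.

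Levels are log2 intensity relative to the 75th percentile over gene probes on the same array, so a level below 0 lies under that percentile. On each array 94.8 to 97.9% of the gene spots were well above background, and the correlation between the 2 runs of a group over all genes was 0.945 to 0.985. TAL1, the transaldolase gene of the pentose phosphate pathway, was at 3.58 and 4.46 in TAL-ADH at 70 mM, at 2.77 and 2.87 in TAL at 70 mM, and at 0.54 and 0.89 in the control strain at 70 mM. At 0 mM it was at 3.65 and 3.96 in TAL-ADH, at 3.44 and 3.98 in TAL, and at 2.34 and 2.81 in the control strain. ADH1, an alcohol dehydrogenase gene with near-identical relatives, was at 5.98 and 6.20 in TAL-ADH at 70 mM, against 5.65 and 5.12 in the control strain at 70 mM. At 0 mM it overlapped between TAL-ADH, at 5.01 and 6.38, and the control strain, at 6.21 and 6.38. In the TAL strain ADH1 was at 4.70 and 4.37 at 70 mM and at 4.65 and 5.18 at 0 mM, below the control runs of the same dose.

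One feature of the arrays touches most of the results. The first principal component, with 61.5% of the variance, placed both arrays labelled TAL-ADH at 70 mM among the 0 mM arrays of TAL-ADH and the control strain, at -47.0 to -39.1. It placed both arrays labelled TAL at 0 mM among the 70 mM arrays of TAL and the control strain, at 31.6 to 54.9. The labels of these pairs may have been exchanged; the files do not settle this, and it was not tested. All values below follow the labels, so TAL-ADH at 70 mM and TAL at 0 mM stand for the arrays so labelled. Under an exchange, every value given for one of these groups would belong to the other, and the 4 arrays with the highest member medians would be those of TAL-ADH and TAL at 0 mM. A comparison that includes either of those groups has no value without them; the comparisons that include neither are furfural in the control strain, TAL with control at 70 mM, and TAL-ADH with control at 0 mM. The arrays lay on 3 slides, each holding 2 groups. Only TAL with control at 70 mM and TAL-ADH with TAL at 0 mM were compared within a slide; in the other comparisons of single groups, slide and group cannot be told apart.

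The mitochondrial ribosomal protein genes were highest on the arrays labelled TAL-ADH. Their median level was -0.45 and -0.11 in the 2 runs of TAL-ADH at 70 mM and -0.65 and -0.14 in those of TAL-ADH at 0 mM. In the TAL strain it was -1.03 and -0.71 at 70 mM and -1.17 and -0.88 at 0 mM. In the control strain it was -1.20 and -1.17 at 70 mM and -0.90 and -0.83 at 0 mM. The 4 TAL-ADH arrays thus lay above the other 8, whichever dose they were labelled with. The lowest were run 1 and, by a small margin over run 1 of TAL at 0 mM, run 2 of the control strain at 70 mM.

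Under quantile normalization, median scaling and normexp background correction, run 2 of TAL at 70 mM lay above run 1 of TAL-ADH at 0 mM, and run 1 of TAL at 0 mM was the lowest array. Within each run number, the 2 TAL-ADH arrays held the 2 highest medians of the 6 under all 4 scalings. The median over all genes lay between -1.48 and -1.09 on every array. Of the 66 members, 39 had their highest group mean in TAL-ADH at 70 mM and 17 in TAL-ADH at 0 mM. The lowest group mean lay in the control strain at 70 mM for 36 members and in TAL at 0 mM for 17. These counts of group means were not taken over all genes and are not read as particular to the members.

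**Figure D1:**
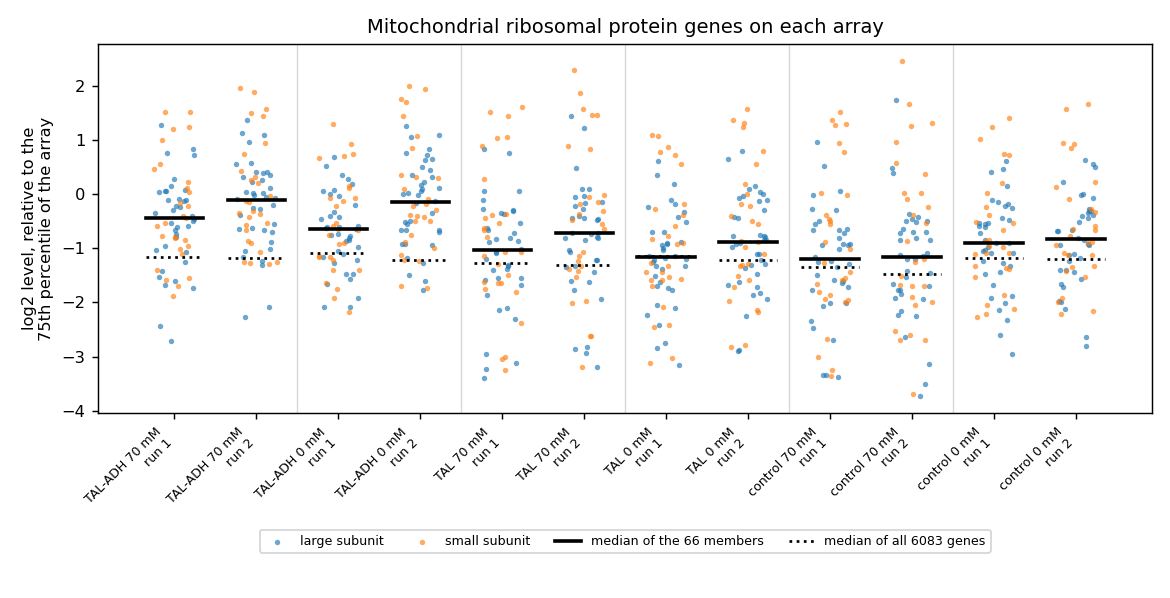
Level of each of the 66 mitochondrial ribosomal protein genes on each of the 12 arrays, as log2 intensity relative to the 75th percentile of the array, in 6 groups of 2 runs. Points are genes coloured by subunit, solid bars their median and dotted bars the median of all 6083 genes; the solid bar is highest on the 4 TAL-ADH arrays, at -0.65 to -0.11.

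Members differed in how far they varied over the groups. The range of the 6 group means was 1.05 log2 for the median member. It was widest for MRPL32 at 2.10, MRP21 at 1.94 and RSM26 at 1.81. It was narrowest for RSM24 at 0.39, RSM28 at 0.47 and MRPL31 at 0.55, all 3 specific to mitochondria.

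MRPL32 (locus YCR003W, bL32m) is a large subunit protein whose precursor is cleaved by the m-AAA protease of the mitochondrial inner membrane. Its level was -1.61 and -1.06 in TAL-ADH at 70 mM and -1.91 and -0.93 in TAL-ADH at 0 mM. It was -3.12 and -2.86 in TAL at 70 mM and -3.15 and -2.88 in TAL at 0 mM. In the control strain it was -3.34 and -3.51 at 70 mM and -2.13 and -1.98 at 0 mM. The TAL-ADH arrays and the control arrays at 0 mM lay above all TAL arrays and above the control arrays at 70 mM.

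MRP21 (YBL090W, bS21m), a small subunit protein with a bacterial counterpart, showed the same division of the arrays. Its level was -1.88 and -1.29 in TAL-ADH at 70 mM and -2.18 and -1.73 in TAL-ADH at 0 mM. In the TAL strain it was -3.25 and -3.19 at 70 mM and -3.03 and -2.80 at 0 mM, and in the control strain -3.35 and -3.70 at 70 mM and -2.05 and -1.98 at 0 mM. At 0 mM, TAL-ADH and control overlapped.

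RSM26 (YJR101W, mS42) encodes a small subunit protein related in sequence to iron and manganese superoxide dismutases. Its level was -1.41 and -1.27 in TAL-ADH at 70 mM and -1.22 and -1.0 in TAL-ADH at 0 mM. It was -3.04 and -2.62 in TAL at 70 mM, -2.42 and -1.98 in TAL at 0 mM, -3.24 and -2.61 in control at 70 mM, and -2.13 and -1.91 in control at 0 mM. All 4 TAL-ADH arrays lay above the other 8. RSM24 (YDR175C, mS35) kept to a narrow band, with levels of -1.59 and -1.08 in TAL-ADH at 70 mM, -1.76 and -1.70 in TAL-ADH at 0 mM, and -1.66 and -1.68 in control at 70 mM. Its other 6 arrays lay between -1.87 and -1.29. Some of its groups did not overlap, among them TAL-ADH at 70 mM, which was above TAL-ADH at 0 mM.

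**Figure D2:**
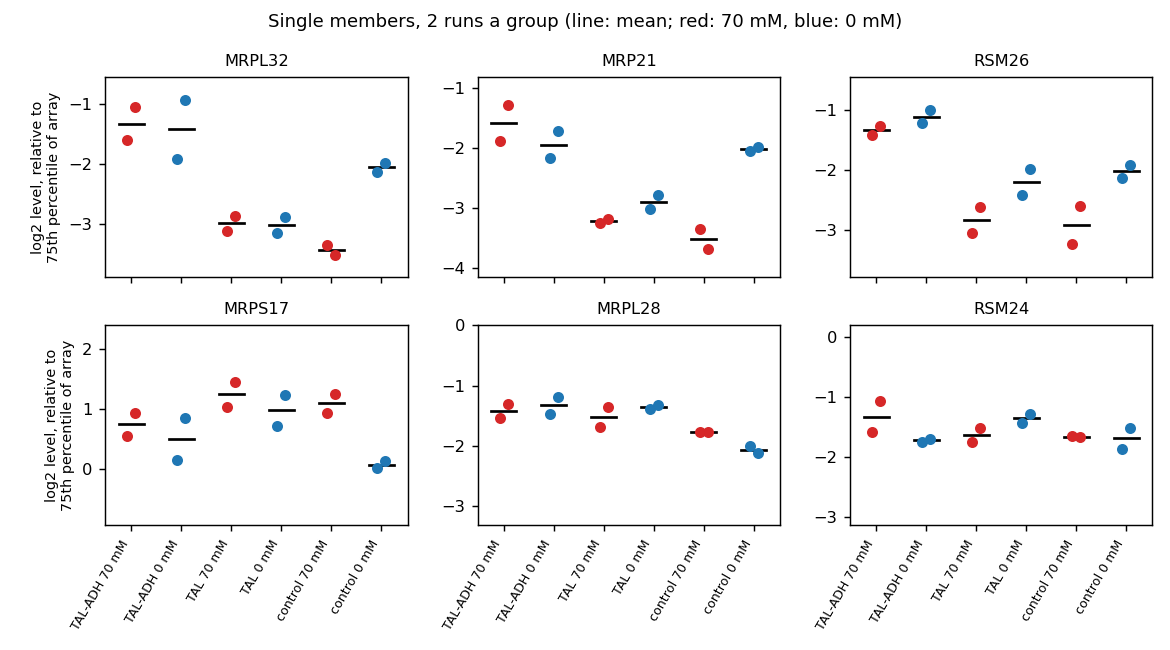
Level of 6 members in the 6 groups, as log2 intensity relative to the 75th percentile of the array; points are the 2 runs of a group, lines their mean, red 70 mM and blue 0 mM, and every panel spans the same log2 height. MRPL32 and MRP21 are low in TAL and in control at 70 mM, RSM26 is highest on the 4 TAL-ADH arrays, MRPS17 and MRPL28 are lowest in control at 0 mM, and RSM24 stays between -1.87 and -1.08.

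The first question of the design is what furfural did within each strain. In TAL-ADH at 70 mM against TAL-ADH at 0 mM, no member was called, a call being an adjusted p (Benjamini-Hochberg) below 0.05 in the limma fit of all 6083 genes. Of all genes, 0.0329% were called. The member median was 0.10, against -0.01 over all genes. MRPL13, with the highest value, was at -0.47 and 0.02 with furfural and at -0.98 and -0.52 without, a difference of 0.52 ± 0.26 (SE, adjusted p = 0.999). MRPL33, with the lowest, was at -2.72 and -2.27 against -2.08 and -1.60, a difference of -0.65 ± 0.25 (adjusted p = 0.999). Both were chosen after their values were seen. Without run 1 of TAL-ADH at 0 mM the median was -0.18, and without run 2 it was 0.44.

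In TAL at 70 mM against TAL at 0 mM, no member was called either, with 0.0986% of all genes called, 0.0329% higher and 0.0658% lower. The median member was at 0.05, against -0.08 over all genes. Member differences ran from -0.76 to 1.19. The arrays labelled TAL at 0 mM, which lay among the 70 mM arrays, enter this comparison.

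In the control strain, 10 members fell and 2 rose with furfural. Over all genes 35.4% were called, 21.5% lower and 14.0% higher, so 15.2% of members lower and 3.03% higher were both under the background. The member median was -0.31, which is -0.12 relative to the median of all genes of -0.18; with median scaling the member median was -0.06 and that of all genes 0.06. Of the members, 51 had a negative and 15 a positive value. In 41 members (62.1%) both runs at 70 mM lay below both runs at 0 mM, against 42.6% of all genes.

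The fall in the control strain was called for 5 large and 5 small subunit members. MRP21, with the largest, was at -3.35 and -3.70 at 70 mM against -2.05 and -1.98 at 0 mM, a change of -1.51 ± 0.26 (limma, adjusted p = 0.00282). MRPL32 changed by -1.37 ± 0.33 (adjusted p = 0.012). MRP35 (YNL122C, bL35m), a large subunit protein, was at -1.17 and -1.41 against -0.21 and -0.28, a change of -1.04 ± 0.29 (adjusted p = 0.0203). In these 3 genes the 2 doses did not overlap. The other 7 were RSM25, RSM26, MRPL23, MRPS18, MRPL16, MRPL1 and MRPS28, at -1.03 to -0.76.

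The 2 that rose were a small and a large subunit protein, both with bacterial counterparts. MRPS17 (YMR188C, uS17m) was at 0.94 and 1.25 at 70 mM against 0.02 and 0.13 at 0 mM, a change of 1.02 ± 0.31 (adjusted p = 0.0297). MRPL4 (YLR439W, uL29m) was at -0.95 and -0.50 against -1.43 and -1.39, a change of 0.69 ± 0.22 (adjusted p = 0.0339). Neither gene overlapped between the doses, and MRPS17 was lowest of all 12 arrays on the 2 control arrays at 0 mM and on run 1 of TAL-ADH at 0 mM.

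These counts moved with single arrays and with the scaling. Fewer members were called without run 1 or run 2 of control at 0 mM, and without run 2 of control at 70 mM. Fewer of all genes were called in those fits as well. Over the 12 fits that left out 1 array, the member median ran from -0.35 to -0.26. With median scaling 4 members were higher and 2 lower, against 33.5% of all genes called either way. With quantile normalization 2 were higher and 4 lower, against 29.3% of all genes. MRP21 kept its call under every alternative tried, while MRPL32, MRP35, MRPS17 and MRPL4 each lost theirs when run 1 or run 2 of control at 0 mM, or run 2 of control at 70 mM, was left out.

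As 1 additive effect over the 3 strains, furfural gave no called member, and 0.0% of all genes were called by limma. Over the members the median was -0.05, against -0.10 over all genes, and turned positive with quantile normalization (0.04) and median scaling (0.08). With the slide as a block 0 members were called, against 3.55% of all genes. The member median was then -0.28, against -0.12 over all genes. Only slide 1 held both doses, as control at 0 mM and TAL-ADH at 70 mM. That term is therefore built from differences between strains within slides, and it uses both groups whose labels may have been exchanged. Without the arrays labelled TAL at 0 mM and TAL-ADH at 70 mM, furfural was contrasted in the control strain alone. There 8 of the 66 members were called, 1 higher and 7 lower, against 29.3% of all genes called either way. The member median was -0.31, against -0.18 over all genes.

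The second question is how the strains differed at the same dose. At 70 mM, TAL-ADH exceeded the control strain in 33 of the 66 members, and no member was lower. Of all genes 36.6% were called, 22.5% higher and 14.1% lower. The member median was 0.84, or 0.64 relative to the median of all genes of 0.20. In 53 members (80.3%) both TAL-ADH runs lay above both control runs, against 42.6% of all genes, and in 1 member they lay below.

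The count covered 23 of 38 large subunit members, with a median of 0.94, and 10 of 28 small subunit members, with a median of 0.70. It covered 20 of the 41 with a bacterial counterpart and 12 of the 24 specific to mitochondria, with medians of 0.80 and 0.84. The called changes ran from 0.80 to 2.10.

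The largest were those of MRPL32, MRP21 and MRPL1. MRPL32 was at -1.61 and -1.06 in TAL-ADH against -3.34 and -3.51 in control, a change of 2.10 ± 0.33 (4.27-fold, limma, adjusted p = 0.00164). MRP21 was at -1.88 and -1.29 against -3.35 and -3.70, a change of 1.94 ± 0.26 (adjusted p = 0.000791). MRPL1 (YDR116C, uL1m), the protein of the L1 stalk, was at 0.75 and 1.14 against -0.82 and -0.49, a change of 1.60 ± 0.23 (adjusted p = 0.00114). In all 3 the lower TAL-ADH run lay well above the higher control run, and each kept its call under every alternative tried.

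Among the other large subunit genes that rose, MRPL6 (uL6m), MRP35, MRPL17, MRPL23 (uL13m), MRPL50 (bL9m) and MRPL25 were at 1.27 to 1.57. Among those of the small subunit, RSM26, RSM25, MRPS9, MRPS28 (uS15m) and MRPS18 (uS11m) were at 1.32 to 1.58. These 11 were chosen after their values were seen. The 33 called members were longer genes than the other 33, with median lengths of 777 and 588 bp in the RefSeq table of the R64 assembly. The same order held in the large subunit, 699 and 534 bp, and in the small subunit, 819 and 663 bp; this is a description without a test.

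The count of 33 was 11 (16.7% of members) without run 2 of TAL-ADH at 70 mM, where 11.0% of all genes were called higher and 18.7% either way. It was 20 (30.3%) without run 2 of control at 70 mM, against 12.5% of all genes higher and 21.3% either way, and 20 with median scaling, against 15.3% and 33.5%. The TAL-ADH arrays at 70 mM are those that lay among the 0 mM arrays.

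**Figure D3:**
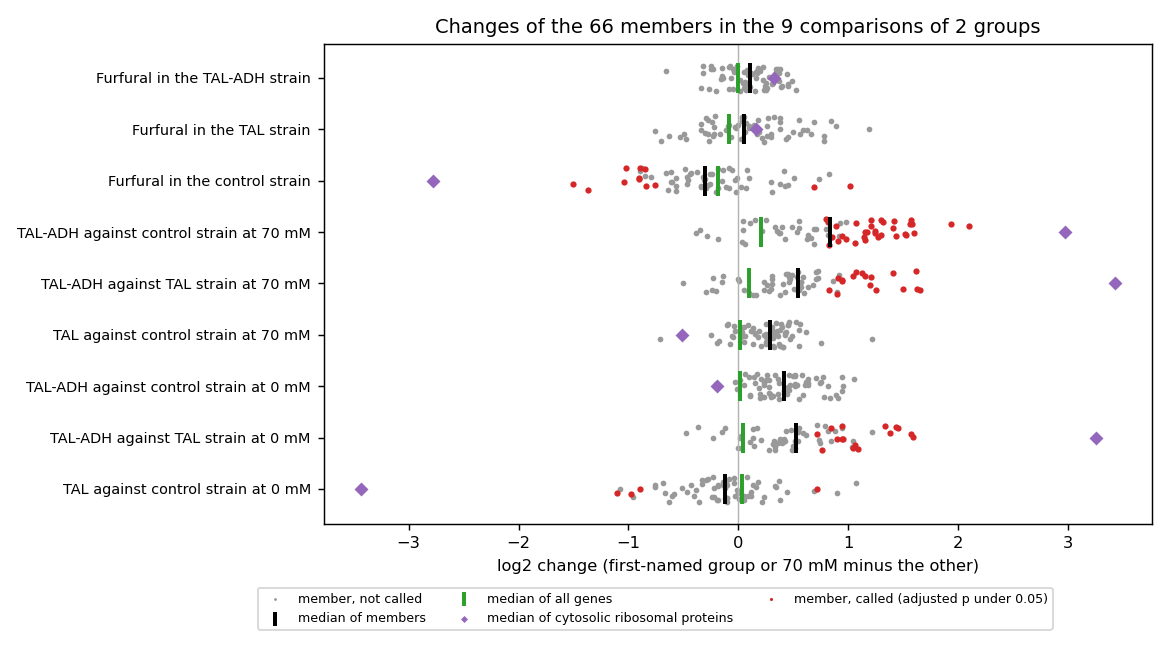
Log2 change of the 66 members in the 9 comparisons of 2 groups, 1 point a gene, the first-named strain or 70 mM minus the other; red points passed an adjusted p under 0.05 in limma. Black bars are the median of the members, green bars that of all genes and diamonds that of the cytosolic ribosomal proteins; most members lie right of 0 in all 4 comparisons of TAL-ADH with another strain, with medians of 0.42 to 0.84.

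Against the TAL strain at 70 mM, TAL-ADH was higher in 17 members and lower in none. Of all genes 31.9% were called, 18.0% higher and 13.9% lower, against 25.8% of members higher. Over the members the median was 0.54, or 0.44 relative to all genes, and 49 members (74.2%) had both TAL-ADH runs above both TAL runs, against 40.0% of all genes. The 17 were 10 large and 7 small subunit genes.

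MRPL32 had the largest change from TAL, at 1.66 ± 0.33 (limma, adjusted p = 0.0054), and MRP21 the next, at 1.63 ± 0.26 (adjusted p = 0.00189). MRPL6 (YHR147C), a large subunit protein with a bacterial counterpart, was at -1.73 and -1.24 in TAL-ADH at 70 mM against -3.39 and -2.82 in TAL at 70 mM, a change of 1.62 ± 0.37 (adjusted p = 0.00984). None of the 3 overlapped between the strains. The count was 3 (4.55% of members) without run 2 of TAL-ADH at 70 mM, against 8.84% of all genes higher. It was 8 (12.1%) without run 1 of TAL at 70 mM, against 14.3%, and 11 (16.7%) without run 2, against 9.04%. In the first 2 cases the members' share was under the background.

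The TAL and control strains at 70 mM, hybridised on 1 slide, gave no called member, with 0.0822% of all genes called, 0.0329% higher and 0.0493% lower. The member median was 0.29, against 0.02 over all genes. Of the members 55 had a positive value, and in 31 (47.0%) both TAL runs lay above both control runs, against 25.4% of all genes. RSM22, chosen after its values were seen, was at -1.06 and -0.32 in TAL against -1.81 and -2.0 in control, a difference of 1.21 ± 0.34 (adjusted p = 0.154). The groups did not overlap, but the difference did not pass the test. With the replicate as a block 1 member was called in this comparison, against 5.87% of all genes.

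Without furfural, no member was called between TAL-ADH and the control strain, and 0.0164% of all genes were. The members' median was 0.42, against 0.02 over all genes, with 63 positive values. In 37 members (56.1%) both TAL-ADH runs lay above both control runs, against 21.0% of all genes, and in 0 they lay below. The median was 0.70 without run 1 of TAL-ADH at 0 mM and 0.11 without run 2.

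MRPL49 (bL21m), chosen after its values were seen, had the largest value. It was at -0.47 and 0.23 in TAL-ADH at 0 mM against -1.10 and -1.24 in control at 0 mM, a difference of 1.05 ± 0.30 (limma, adjusted p = 0.426). RSM7 (uS7m), likewise chosen, had the lowest, at 0.92 and 1.75 against 1.41 and 1.66, a difference of -0.20 ± 0.41 (adjusted p = 0.971). MRPL49 did not overlap between the strains and RSM7 did.

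Against the TAL strain at 0 mM, on the same slide, TAL-ADH was higher in 16 members and lower in none. Of all genes 25.7% were called, 12.7% higher and 13.0% lower, against 24.2% of members higher. The member median was 0.53, or 0.49 relative to all genes, and 41 members (62.1%) had both TAL-ADH runs above both TAL runs, against 31.2% of all genes. The 16 were 9 large and 7 small subunit genes.

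MRPL32 changed by 1.59 ± 0.33 (limma, adjusted p = 0.00857). MRP2 (YPR166C, uS14m), a small subunit protein, was at -1.92 and -0.89 in TAL-ADH at 0 mM against -3.13 and -2.83 in TAL at 0 mM, a change of 1.57 ± 0.33 (adjusted p = 0.00912). MRPL50 (YNR022C), a large subunit protein, was at -0.73 and 0.45 against -1.71 and -1.48, a change of 1.45 ± 0.36 (adjusted p = 0.0178). The 2 TAL-ADH runs differed widely in these genes, yet both lay above both TAL runs. The count was 4 (6.06% of members) without run 1 of TAL at 0 mM, against 10% of all genes higher, and 6 (9.09%) without run 2, against 6.0%. It was 27 (40.9%) without run 1 of TAL-ADH at 0 mM, against 13.0%, and 4 (6.06%) without run 2, against 6.48%. With only the 4 arrays of these groups fitted it was 0, against 10.7% of all genes called.

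This comparison shares no array with that of TAL-ADH and control at 70 mM. Called in both were 14 members, 42.4% of the 33 and 87.5% of the 16. Over all genes 577 were called higher in both, 42.1% of 1370 and 74.6% of 773, so the first share was that of the background; nothing particular to the members is read from the overlap.

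Between TAL and control at 0 mM, 3 members fell and 1 rose. Of all genes 28.4% were called, 13.5% lower and 14.9% higher, so the members' 4.55% and 1.52% were under the background. The median member was at -0.12, against 0.03 over all genes. MRPL23 (YOR150W) was at -2.05 and -1.72 in TAL at 0 mM against -0.72 and -0.84 in control at 0 mM, a change of -1.10 ± 0.28 (limma, adjusted p = 0.0175). MRP35 changed by -0.98 ± 0.29 (adjusted p = 0.0319) and MRP21 by -0.90 ± 0.26 (adjusted p = 0.033).

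The member that rose was MRPL28 (YDR462W, mL40), a large subunit protein specific to mitochondria. It was at -1.39 and -1.32 in TAL at 0 mM against -2.02 and -2.13 in control at 0 mM, a change of 0.72 ± 0.21 (adjusted p = 0.0324). None of the 4 overlapped between the strains. Over the 12 fits that left out 1 array, the member median ran from -0.27 to -0.01. Fewer members were called without a run of control or of TAL at 0 mM, and fewer of all genes as well. More members were called without a run of TAL-ADH at 0 mM, and more of all genes too. With median scaling 0 members were higher and 3 lower, against 28.3% of all genes called either way.

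**Figure D4:**
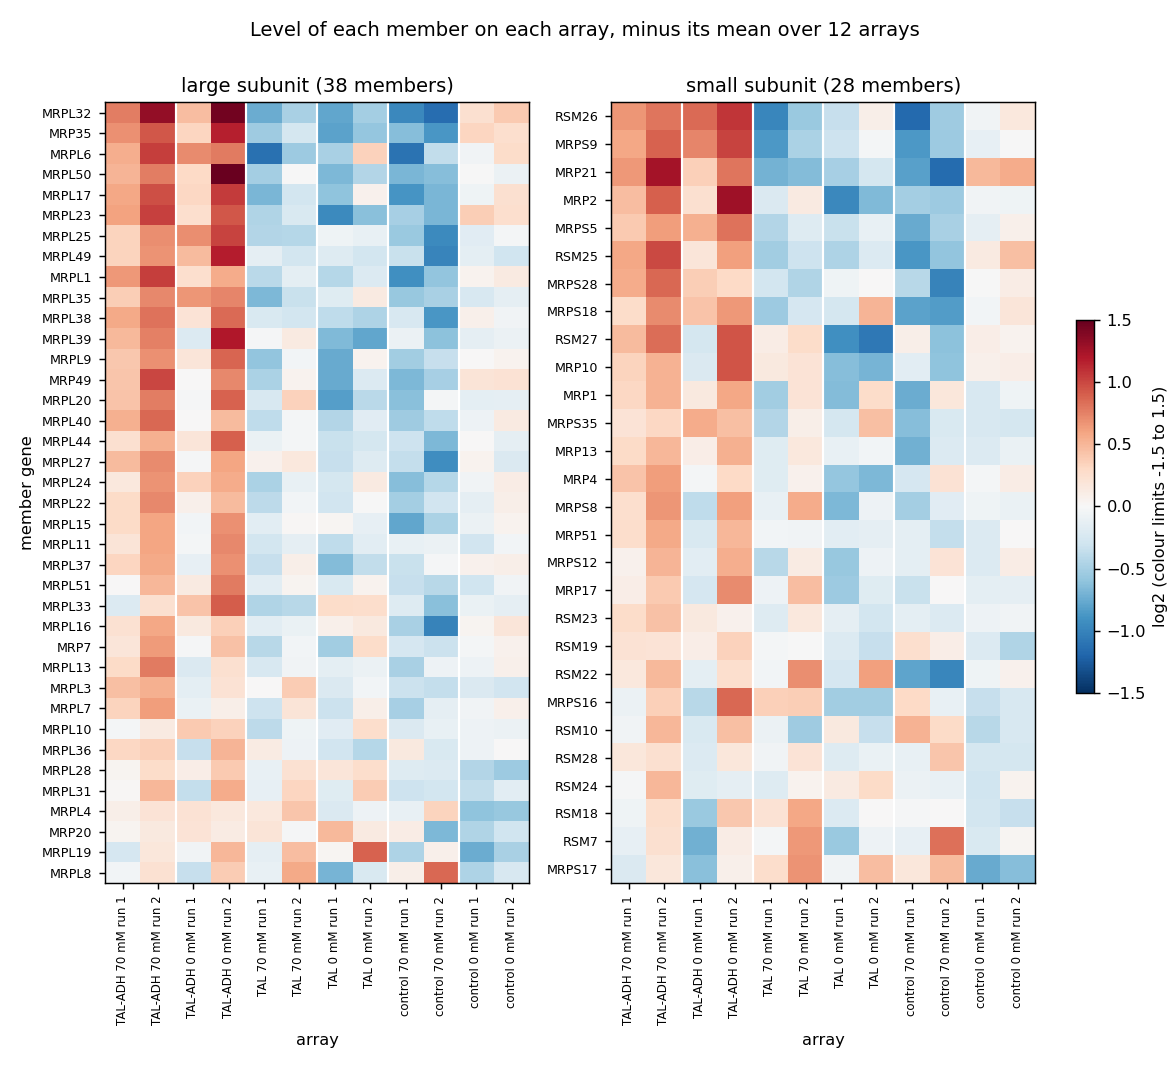
Level of every member on every array minus its mean over the 12 arrays, in log2, with the 38 large subunit members on the left and the 28 small subunit members on the right; rows run from the most to the least raised in TAL-ADH within each subunit. Red fills the 4 TAL-ADH columns of most upper rows, and the lower rows, with MRPS17 among them, do not show it.

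The third question is whether the effect of furfural differed between strains, which the interaction terms test directly. The furfural effect in TAL-ADH minus that in the control strain was called for 4 members, all higher, with 19.6% of all genes called, 11.2% higher and 8.4% lower, against 6.06% of members higher. The member median was 0.41, or 0.25 relative to all genes. The 4 were MRP21, at 1.88 ± 0.37 (limma, adjusted p = 0.01), RSM25 (mS23), a mitochondria-specific small subunit protein, at 1.41 ± 0.36 (adjusted p = 0.0258), MRPL1, at 1.29 ± 0.33 (adjusted p = 0.0266), and MRPS28, at 1.14 ± 0.34 (adjusted p = 0.0437). Fewer members were called without either run of control at 0 mM, run 1 of TAL-ADH at 0 mM or run 2 of TAL-ADH at 70 mM. Fewer of all genes were called in those fits as well. The member median ran from 0.12 to 0.70 over the 12 fits that left out 1 array. MRP21 kept its call in all 12 fits that left out 1 array, RSM25 and MRPL1 in 7 each and MRPS28 in 1.

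Between the furfural effects of TAL-ADH and TAL no member was called, and 0.0% of all genes were called by limma. For this term the members' median was 0.02, against 0.07 over all genes, and turned negative with normexp (-0.03), quantile normalization (-0.05) and median scaling (-0.10). Between those of TAL and control no member was called, with 10.2% of all genes called, 5.13% higher and 5.1% lower. There the member median was 0.37, against 0.08 over all genes. That member median ran from 0.22 to 0.51 over the 12 fits that left out 1 array. More members were called without run 1 or run 2 of TAL-ADH at 0 mM, and more of all genes as well. The same held with the replicate as a block, where 22.2% of all genes were called. The 2 groups whose arrays crossed their labels enter these terms.

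The rest of the mitochondrial translation apparatus was taken from lists drawn up together with the comparisons. These lists are read against the background percentages above and carry no test of their own. At 70 mM, TAL-ADH exceeded control in 4 of 14 mitochondrial ribosomal proteins with other names, 5 of 14 aminoacyl-tRNA synthetases, 5 of 14 translational activators, 4 of 9 translation factors, 1 of 6 assembly factors and 1 of 2 transcription genes. It was lower in 1 translation factor. In the order given, the shares higher were 28.6, 35.7, 35.7, 44.4, 16.7 and 50%. Of all genes 22.5% were called higher and 14.1% lower, so the assembly factors were under the background. The medians of these 6 lists were 0.36 to 0.75, against 0.84 for the members and 0.20 over all genes. The highest was that of the 2 transcription genes, which were at 0.10 and 1.40.

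In the control strain, furfural gave 1 higher and 1 lower call among the 14 other mitochondrial ribosomal proteins, 7.14% each. Both shares were under the 14.0% of all genes called higher and the 21.5% called lower. RTC6 (bL36m) changed by -0.93 ± 0.31 (limma, adjusted p = 0.0436) and EHD3, also a metabolic hydrolase, by 0.82 ± 0.22 (adjusted p = 0.0172). Among 9 translation factors 2 fell (22.2%) and 1 rose (11.1%), which is near the background. RRF1, the ribosome recycling factor, was at -3.01 and -2.99 at 70 mM against -1.56 and -1.47 at 0 mM, a change of -1.49 ± 0.36 (adjusted p = 0.0118). MEF2, an elongation factor relative that acts in recycling, was at 0.92 and 1.45 against -1.23 and -0.75, a change of 2.18 ± 0.48 (adjusted p = 0.008). The doses did not overlap in either.

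The calls lower in the other lists were 3 of 14 aminoacyl-tRNA synthetases, 2 of 14 translational activators, 1 of 6 assembly factors and 1 of 2 transcription genes, with none higher. The first 3 are 21.4, 14.3 and 16.7% of their lists, none above the 21.5% of all genes called lower. DIA4, a mitochondrial seryl-tRNA synthetase, changed by -0.91 ± 0.30 (limma, adjusted p = 0.0413). PET122, an activator of COX3 translation, changed by -1.52 ± 0.34 (adjusted p = 0.00837). MTG1, a GTPase of large subunit assembly, changed by -1.13 ± 0.25 (adjusted p = 0.00776) and MTF1, the mitochondrial transcription factor, by -1.09 ± 0.22 (adjusted p = 0.00511).

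The cytosolic ribosomal proteins moved further than the mitochondrial ones and in another order of groups. With furfural in the control strain 132 of 138 fell and none rose, with a median of -2.78, against -0.31 for the members. The share of all genes called lower was 21.5%. In TAL-ADH against control at 70 mM 132 rose, with a median of 2.98, and in TAL-ADH against TAL at 0 mM 134 rose and 1 fell, with a median of 3.25. The shares of all genes called higher were 22.5 and 12.7%, in that order. In TAL-ADH against control at 0 mM none was called, as among the members. There the cytosolic median was -0.19 and the mitochondrial one 0.42; that difference was not tested. RPL21A, a protein of the cytosolic large subunit, was at 0.35 and 0.37 in TAL-ADH at 70 mM and -3.75 and -4.40 in control at 70 mM, against 0.17 and 0.04 in control at 0 mM.

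In every group but control at 70 mM, the runs differed more in the members' median than over all genes. The median of run 1 minus run 2 over the members was -0.33 in TAL-ADH at 70 mM, -0.52 in TAL-ADH at 0 mM, -0.31 in TAL at 70 mM and -0.23 in TAL at 0 mM. It was -0.04 in control at 70 mM and -0.11 in control at 0 mM. Over all genes it lay between -0.02 and 0.11. In TAL-ADH at 0 mM run 1 was the higher one in 6 of 66 members, and in TAL-ADH at 70 mM in 1. It was the higher one in 7 in TAL at 70 mM, 14 in TAL at 0 mM, 30 in control at 70 mM and 17 in control at 0 mM. The part of this run difference in the strain differences was not tested.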

How the data were processed

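The scanner files hold, per the file headers, an intensity for each spot that Agilent Feature Extraction, in its version 10.1.1.1, had background-subtracted and spatially detrended, with no scaling between arrays. The deposited series table holds log2 values, centred per probe; who set its centring and scaling is not given in the sources used here. It differed from the scanner values treated alike by a median of at most 0.00601 (r at least 0.999995; 6316 probes; column medians -0.167 to 0.0547).

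Log2 intensity was averaged over the unflagged spots of a probe (7 spots) and the 75th percentile over the gene probes of the array was subtracted. Genes were kept where over 50% of spots were well above background on both arrays of at least 1 group (6083 kept, 173 dim). RefSeq's R64 table named 5756 probes; 500 keep the array's name. The build behind the array is not given in the sources used here. Array number limits the precision.

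limma 3.58.1 in R 4.3.3 was fitted on 6 group means (6 residual degrees of freedom; 8 for the additive fit; prior SD 0.294, 3.11 prior degrees of freedom), with Benjamini-Hochberg adjustment over 6083 genes for each of 13 comparisons. SE is that of the fit, with n = 2 arrays a group. Comparisons of groups share arrays, so their counts are not independent. The script was tested on simulated data. Tables and plots used Python 3.11.15, pandas 2.3.3, numpy 2.4.6 and matplotlib 3.10.9.

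Members, lists and alternatives were chosen with earlier results of these data known. Named were the 3 called members with the largest rise and fall in each comparison, the 3 with the widest and narrowest range of group means, and the called gene with the largest rise and fall of each other list in the control strain's furfural comparison; members named beyond this were chosen after their values were seen. Alternatives were normexp background (offset 50), quantile normalization, median scaling, no filter, a replicate block, only the groups compared, the deposited values, the slide as a block and leaving out each array. Promoter and protein sequences were not used here.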

Additional observations from a re-analysis of the deposited data

Results flagged for a closer look

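The furfural effect differed between the TAL-ADH and control strains in 4 members by the interaction term of limma, 6.06% of the members, under the 11.2% of all genes called higher. MRP21 changed by 0.37 ± 0.26 in TAL-ADH (adjusted p = 0.999) and by -1.51 ± 0.26 in control (adjusted p = 0.00282), a difference of 1.88 (adjusted p = 0.01). RSM25 changed by 0.38 ± 0.25 in TAL-ADH and -1.03 ± 0.25 in control, a difference of 1.41 (adjusted p = 0.0258). MRPL1 changed by 0.44 ± 0.23 and -0.84 ± 0.23, a difference of 1.29 (adjusted p = 0.0266). MRPS28 changed by 0.37 ± 0.24 and -0.76 ± 0.24, a difference of 1.14 (adjusted p = 0.0437), which kept its call in 1 of the 12 fits that left out 1 array (adjusted p up to 0.158). RSM25 and MRPL1 kept theirs in 7 of 12. In all 4 the value was positive in TAL-ADH, without passing the test, and lower with furfural in control. Both arrays labelled TAL-ADH at 70 mM lay among the 0 mM arrays on the first principal component; the part of this in the differences was not tested.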

How the results depend on the processing

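Leaving aside the omission of single arrays, the member medians kept their sign except those near 0 for furfural over the 3 strains (0.04 with quantile normalization, 0.08 with median scaling) and for the furfural effect of TAL-ADH minus TAL (-0.03 with normexp, -0.05 with quantile normalization, -0.10 with median scaling). Median scaling gave 6 members called for furfural in control (median -0.064), 20 for TAL-ADH against control at 70 mM (median 0.58) and 1 for the furfural effect of TAL-ADH minus control (median 0.19). Quantile normalization gave 6 and 2 for furfural in control and for that interaction, and normexp 2 for TAL against control at 0 mM. Of all genes, median scaling called 33.5, 33.5 and 18.3% in its 3 comparisons, in that order. Quantile normalization called 29.3 and 15.9% of all genes, and normexp 24.6%. With the replicate block the counts were 24 (furfural in control), 30 (TAL-ADH against TAL at 70 mM), 1 (TAL against control at 70 mM), 31 (TAL-ADH against TAL at 0 mM), 14 (TAL against control at 0 mM), 17 (effect of TAL-ADH minus control) and 8 (effect of TAL minus control); the shares of all genes called rose as well, to 50.2, 47.0, 5.87, 41.1, 42.9, 36.3 and 22.2% in that order, so the rises are not particular to the members. The run numbers are not known to pair the samples. Run differences correlated positively between all pairs of groups, at 0.0435 to 0.861, over 2 runs. Whether arrays of the same run number share a batch was not tested. Fitting only the groups compared gave 0 for TAL-ADH against TAL at 0 mM, against 10.7% of all genes. It gave 4 for the effect of TAL minus control, against 9.35% of all genes. Furfural over the 3 strains gave 8 called members without the arrays labelled TAL at 0 mM and TAL-ADH at 70 mM. Of all genes 29.3% were called there, and the member median was -0.31, against -0.18 over all genes. With the slide as a block the member median was -0.28, against -0.12 over all genes, in a term built from differences between strains.

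Leaving out 1 array gave counts of 1 to 14 (furfural in control), 11 to 38 (TAL-ADH against control at 70 mM), 3 to 20 (TAL-ADH against TAL at 70 mM), 4 to 27 (the same at 0 mM), 0 to 9 (TAL against control at 0 mM), 1 to 6 and 0 to 6 (effects of TAL-ADH and TAL minus control) and 0 to 1 (over the 3 strains). The medians ran from -0.18 to 0.44 (furfural in TAL-ADH), 0.11 to 0.70 (TAL-ADH against control at 0 mM), 0.34 to 0.85 (TAL-ADH against TAL at 0 mM), 0.12 to 0.70 (effect of TAL-ADH minus control) and -0.22 to 0.28 (effect of TAL-ADH minus TAL). Where a group kept 1 array, that array was assumed to vary like the others. Of 418 alternative values for 22 named member changes, 343 kept direction and call, 75 lost the call and 0 reversed. The deposited values and the unfiltered fit moved no count by over 1.5 times. All members were above background on all arrays; what limited the calls was not tested.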

Other observations

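The proteins built by the mitochondrial ribosome work together with nuclear-encoded subunits of oxidative phosphorylation, which did not follow the order of the mitochondrial ribosomal proteins. Of 34 such genes, 22 fell and none rose in TAL against control at 0 mM by limma, with a median of -1.04. All genes were called lower in 13.5% and higher in 14.9% there. TAL-ADH was higher than TAL in 8 of 34 at 70 mM (median 0.60) and in 10 of 34 at 0 mM (median 0.75). The shares of all genes called higher were 18.0% at 70 mM and 12.7% at 0 mM. Against control at 70 mM TAL-ADH was higher in 1 and lower in 3, with a median of -0.14, where 33 of 66 mitochondrial ribosomal proteins were higher. Among all genes 22.5% were called higher and 14.1% lower in that comparison. With furfural in the control strain 3 rose and 2 fell. Both shares were under the background of 14.0% of all genes higher and 21.5% lower. COX7, a subunit of cytochrome c oxidase, was at 3.96 and 4.18 at 70 mM against 3.25 and 2.75 at 0 mM, a change of 1.07 ± 0.33 (adjusted p = 0.0338). ATP5, a subunit of the ATP synthase stalk, was at -0.43 and -0.41 against 0.48 and 0.70, a change of -1.01 ± 0.26 (adjusted p = 0.0164).

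Ribosome biogenesis genes of the nucleolus had a median of -0.94 with furfural in the control strain, with 11 of 30 lower and none higher. Over all genes the median was -0.18, with 21.5% called lower. NSA2, a factor of large subunit maturation in the cytosolic pathway, was at -2.88 and -3.76 at 70 mM against -1.15 and -1.20 at 0 mM, a change of -2.15 ± 0.61 (limma, adjusted p = 0.0237). In TAL-ADH against control at 70 mM 14 of 30 rose, with a median of 1.07. Over all genes 22.5% were called higher, with a median of 0.20.

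MRPS12 (uS12m) and RSM19 (uS19m) were the only members that neighbour each other in the RefSeq table, on chromosome XIV. Both were chosen after their values were seen. MRPS12 was at 1.51 and 1.95 in TAL-ADH at 70 mM against 1.30 and 1.65 in control at 70 mM, and RSM19 at -0.41 and -0.43 against -0.38 and -0.54. Both overlapped between these groups.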
